A study of Homo sapiens with 2 samples.

Results

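The genes described here build the contacts between epithelial cells: cadherins and their catenins, desmosomal proteins, claudins and other tight junction proteins, keratins, nectins, and the splicing factors ESRP1 and ESRP2. They were chosen by name, as a list of 39 gene symbols, and a probe set (a group of short probes for 1 transcript) was taken where the array's annotation pairs it with exactly 1 of these symbols. Of the 39 genes, 35 had such a probe set, 73 probe sets in all, out of 19775 genes on the array. CTNND1 and ESRP2 appeared only on probe sets shared with another symbol, and F11R and KRT81 were not analysed here. Of the 35, 25 genes reached the floor of 84.1 signal units on at least 1 array and are called measured. The floor is the higher of the median signals of the 2 arrays, and signals under it were set to it before any difference was taken.

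The cells were PLC/PRF/5, an established line from a human hepatocellular carcinoma. The hepatosphere array held RNA of spheroids exposed to cisplatin, which crosslinks DNA, and doxorubicin, which poisons topoisomerase II, and these spheroids are labelled chemoresistant. The array of differentiated cells held RNA of spheroids that received FBS (fetal bovine serum) and attached to the dish. The comparison asks how the resistant spheroids differ from their attached counterparts. Each group had 1 array and thus no spread between replicates, so no difference below was tested and none carries an error. Growth form, serum and attachment changed together, and prior drug exposure of the attached cells is not stated, so these cannot be told apart. In RNA from whole cultures, fewer cells of a kind and less RNA per cell cannot be told apart either.

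Epithelial cells hold together through stacked contacts. In the adherens junction, cadherins and nectins bind their counterparts on the next cell and reach actin through catenins and afadin. In the desmosome, desmogleins and desmocollins bind plakoglobin, plakophilins and desmoplakin, which tie them to keratin filaments. The tight junction seals the gap above both, with claudins and occludin in the membrane and ZO proteins and cingulin below it. Hepatocytes use this seal to close the bile canaliculus, and their keratin filaments are made of keratins 8 and 18.

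Hepatocyte genes were present on both arrays: all 6 with a probe set, among them ALB, APOB and SERPINA1, were above the floor. Their summed signal was 78234 in differentiated cells and 132124 in hepatospheres. Of the 6, 5 were higher in hepatospheres and APOA1 was lower, at 3153 in differentiated cells and 2699 in hepatospheres. Of 5 fibroblast markers, 1 reached the floor in differentiated cells and 4 in hepatospheres, and the summed signal went from 416 to 4001. LUM (lumican) accounted for much of it, at 1.14 and 2677, though its other probe set stayed below the floor at 17.3 and 77.2. COL3A1 read 42.6 and 679, while COL1A2 stayed below the floor at 5.66 and 35.6. The part of these genes in the differences below was not tested. Of 3 endothelial and 3 leukocyte markers with a probe set, PECAM1 (3388 and 3787) and LYZ (6364 and 10454) were above the floor, and PTPRC, CD3E, CDH5 and VWF were below it on both arrays. The ratio of 3' to 5' ACTB signal was 1.48 in differentiated cells and 2.64 in hepatospheres, and that of GAPDH 0.987 and 1.04.

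The junction genes did not shift as a block. Of the 25 measured genes, 3 were higher in hepatospheres by at least 2-fold (CLDN4, NECTIN2 and CDH17), 4 lower by as much (OCLN, CLDN1, KRT8 and PKP2), and 18 were within 2-fold. Over all 12766 measured genes, 12.5% were 2-fold or more higher and 8.83% at least 2-fold lower, against 12% and 16% of the junction genes. The median difference was -0.03 on the log2 scale, beside 0.05 over all genes. A log2 difference is the signal in hepatospheres minus that in differentiated cells, and where a pair of signals is given the differentiated cells come first. With the arrays centred on their medians, the counts were 2 higher and 6 lower, or 8% and 24%, beside 9.09% and 14.6% of all genes. With the arrays scaled to their poly(A) control RNAs, which read 2.04-fold higher on the hepatosphere array, they were 1 higher and 13 lower of 23, or 4.35% and 56.5%, beside 3.22% and 46.5% of all genes. These scalings moved the median of all genes by -0.23 and -0.97, so each direction given here is relative to the bulk of genes.

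**Figure D1:**
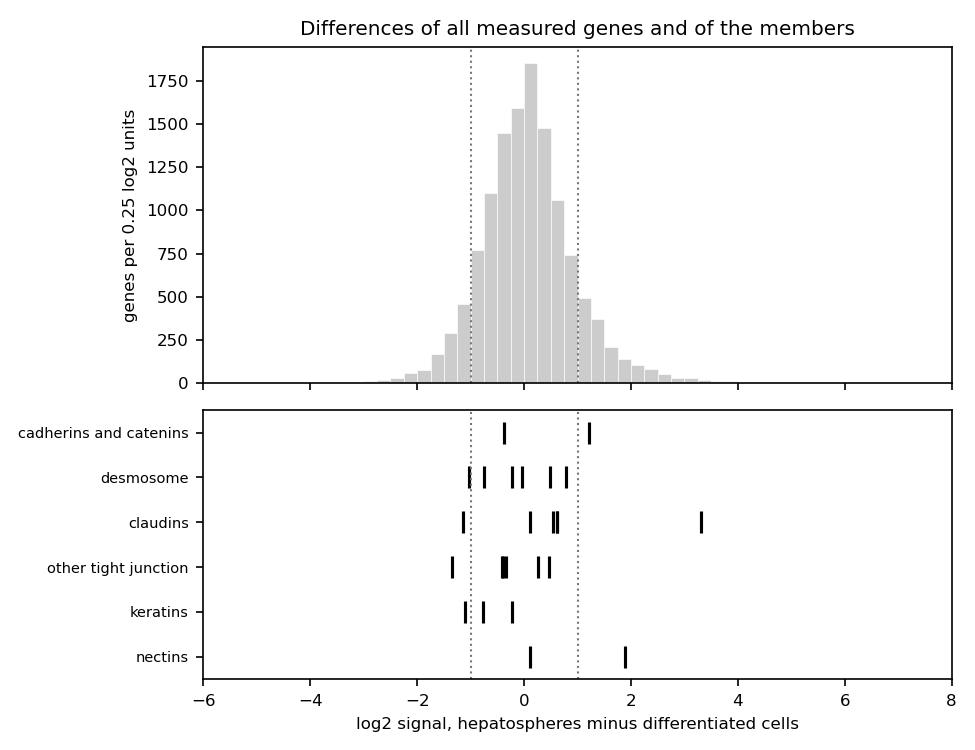
Top, histogram of the log2 difference in signal (hepatospheres minus differentiated cells) of 12766 measured genes in steps of 0.25. Bottom, each of the 25 measured junction and keratin genes as a tick, by role, with dotted lines at 2-fold: 3 ticks lie above the upper line, 4 below the lower one, and CLDN4 at 3.31 lies farthest out. With poly(A) scaling, 1 lies above and 13 of 23 below, where 46.5% of all genes lie below too.

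Promoter sequence is shown for 5 of the 7 genes that were 2-fold apart, at the outermost start in the promoter table for each gene. Each line gives the 250 bases before the RefSeq start on GRCh38.p14, read 5′ to 3′ on the gene's strand. The windows are chr7:73830746-73830995 (plus strand) for CLDN4, chr19:44846047-44846296 (plus) for NECTIN2, chr5:69492297-69492546 (plus) for OCLN, chr3:190322447-190322696 (minus) for CLDN1 and chr12:52926470-52926719 (minus) for KRT8. The KRT8 window precedes the start in the promoter table and lies inside the longer annotated span of that gene. Any other start of KRT8 was not read, so a motif missing from this window may lie before another start. Capitals mark an E-box CACCTG, the core bound by ZEB and SNAI repressors, or a GC box GGGCGG, the core bound by SP1, each on either strand.
CLDN4: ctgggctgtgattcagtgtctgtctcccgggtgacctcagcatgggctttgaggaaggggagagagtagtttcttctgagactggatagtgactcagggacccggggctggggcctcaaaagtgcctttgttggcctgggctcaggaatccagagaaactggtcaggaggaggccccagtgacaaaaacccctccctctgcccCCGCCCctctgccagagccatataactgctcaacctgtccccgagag
NECTIN2: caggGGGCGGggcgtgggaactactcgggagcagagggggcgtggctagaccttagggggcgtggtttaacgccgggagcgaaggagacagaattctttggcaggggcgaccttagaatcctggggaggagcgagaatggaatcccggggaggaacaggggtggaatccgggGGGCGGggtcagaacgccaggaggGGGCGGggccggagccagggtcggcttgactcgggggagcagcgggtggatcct
OCLN: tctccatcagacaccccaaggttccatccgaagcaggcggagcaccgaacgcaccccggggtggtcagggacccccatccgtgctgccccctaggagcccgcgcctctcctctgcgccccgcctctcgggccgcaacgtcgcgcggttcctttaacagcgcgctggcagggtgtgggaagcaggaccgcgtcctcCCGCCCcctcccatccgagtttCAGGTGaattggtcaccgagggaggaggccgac
CLDN1: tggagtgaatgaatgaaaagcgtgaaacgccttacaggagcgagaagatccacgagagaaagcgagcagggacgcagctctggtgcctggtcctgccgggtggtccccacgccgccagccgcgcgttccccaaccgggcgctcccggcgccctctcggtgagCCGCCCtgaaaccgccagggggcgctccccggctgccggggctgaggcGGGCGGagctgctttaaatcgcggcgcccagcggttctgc
KRT8: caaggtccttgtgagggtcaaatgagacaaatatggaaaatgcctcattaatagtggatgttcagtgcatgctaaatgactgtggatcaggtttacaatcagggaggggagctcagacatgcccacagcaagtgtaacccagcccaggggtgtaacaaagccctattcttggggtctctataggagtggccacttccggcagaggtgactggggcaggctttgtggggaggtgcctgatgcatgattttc
Among these 5 windows only that of OCLN held the E-box, as CAGGTG with its first base 33 bases before the start. The GC box was found 1 time in the CLDN4 and OCLN windows, 2 times in CLDN1, 3 times in NECTIN2 and not in the KRT8 window shown. Of the 25 listed genes with a window (for genes with several starts in the promoter table, the outermost of those), 6 held an E-box and 20 a GC box. Of the 6 genes with an E-box, 5 were within 2-fold between the arrays. Among all 25, 13 were within 2-fold, 2 higher, 3 lower and 7 not measured, so that count says little about the E-box. Over all 35116 windows of this length the E-box was found in 17.5% and the GC box in 42.6%. The site AACCNGTT, bound by grainyhead factors, was found in the window of CGN alone among the 25, where it overlaps neither other motif, and in 1.49% of all windows. A match describes the letters and does not show a bound site.

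Cadherins carry the adhesion of the adherens junction. CDH1 (E-cadherin), the main epithelial cadherin, was below the floor on both arrays, at 21.7 in differentiated cells and 7.39 in hepatospheres on one probe set and at 2.59 and 8.37 on the other. CDH2 (N-cadherin), which hepatocytes also carry, was below it as well, at 39.96 and 78.0. CDH17, the liver-intestine cadherin, was measured on both arrays by probe set 209847_at. Its signal was 938 in differentiated cells against 2177 in hepatospheres, or 2.32-fold higher. The difference was 0.96 on the log2 scale with median centring and 0.18 with poly(A) scaling. CTNNA1 (alpha-catenin), which links cadherin complexes to actin, read 4464 and 3454, a difference of -0.37, and 3 of its 4 probe sets at the floor were lower.

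Desmosomal genes split by protein. DSP (desmoplakin), the plaque protein that grips keratin filaments, was nearly equal at 8403 in differentiated cells and 8214 in hepatospheres. JUP (plakoglobin), shared by desmosomes and adherens junctions, read 1784 and 1527 (-0.22 on the log2 scale). PKP2, the plakophilin of simple epithelia and heart, was the member of the group past 2-fold: probe set 207717_s_at read 626 and 305, 2.06-fold lower in hepatospheres, though -0.87 with log2 of signal plus floor. PKP3 crossed the floor, from 75.8 to 118, and PKP1, a plakophilin of stratified epithelia, stayed at 5.67 and 3.71. The desmosomal cadherins had opposite signs on the probe sets that represent them. DSG2 (desmoglein 2) read 2645 and 4568, a difference of 0.79 (-0.24 with poly(A) scaling), and its other probe set was 2.28-fold higher. DSC2 (desmocollin 2) read 1071 and 635, a difference of -0.75, while its other probe set at the floor stood at 0.38. DSC2 and DSG2 lie in the desmosomal cadherin cluster, with 4 protein-coding genes between them in RefSeq order.

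Claudins form the paracellular seal or its pores, and those measured did not go one way. CLDN4, a sealing claudin common in gut and bile duct epithelium, was the gene farthest apart. Probe set 201428_at read 97.7 in differentiated cells, just above the floor, against 967 in hepatospheres, or 9.90-fold higher. The size rested on the low value: with the floor at the 60th percentile the difference was 2.66 on the log2 scale in place of 3.31. Over the 10 alternatives it stayed between 2.28 and 3.31, past 2-fold in each. The 40th percentile floor, no floor, the mean over probe sets and leaving out shared-sequence probe sets could not change it. The other CLDN4 probe set was below the floor on both arrays. CLDN1, a sealing claudin of skin and liver, went the other way. Probe set 222549_at read 8943 in differentiated cells against 4066 in hepatospheres, or 2.20-fold lower, and its other probe set read 1818 and 1185, so that the mean over both was -0.88.

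The remaining claudins differed less. CLDN15, a cation pore of the gut, read 657 and 1007 on one probe set and 206 and 306 on the other, differences of 0.62 and 0.57. CLDN7, which sits along the lateral membrane, read 200 and 290 (0.54). Both turned to -0.41 and -0.49 with poly(A) scaling. CLDN18, the gastric and lung claudin, and CLDN2, a cation and water pore of leaky epithelia, were above the floor in hepatospheres only, at 128 and 91.0. In differentiated cells they read 46.4 and 69.4, so the differences of 0.61 and 0.11 are lower bounds. CLDN3, CLDN6, CLDN14 and CLDN16 were below the floor on both arrays, where their order cannot be read.

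Claudin genes often lie side by side, and the adjacent pairs of this list differed in signal. CLDN3 and CLDN4 are adjacent on chromosome 7, and CLDN3 read 5.17 and 5.64 beside the 9.90-fold difference of CLDN4. Of the 16 nearest measured genes around CLDN4, 4 were 2-fold or more higher in hepatospheres and 1 lower, with a median of 0.49, that is 25% and 6.25% beside 12.5% and 8.83% of all genes. CLDN1 and CLDN16 are adjacent on chromosome 3, and CLDN16 read 64.8 and 43.5, below the floor. Around CLDN1, 0 of 16 measured neighbours were 2-fold higher and 3 lower (18.8%), with a median of -0.46. Around the other 5 genes past 2-fold the 16 neighbours gave 2 higher and 2 lower for each of NECTIN2, OCLN and KRT8, 3 and 2 for CDH17, and 0 and 2 for PKP2.

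Among the other tight junction genes, 1 of 6 measured was past 2-fold. OCLN (occludin), the first transmembrane protein found at the tight junction, read 3942 in differentiated cells against 1540 in hepatospheres on probe set 227492_at, or 2.56-fold lower. Its other probe sets read 467 and 253, 298 and 211, and 120 and 43.8. All 4 were lower in hepatospheres, and with the mean over them OCLN stood at -0.81. RefSeq lists 1 pseudogene named after OCLN, and the probe sets may not tell the copies apart. MARVELD2 (tricellulin), a relative of occludin found where 3 cells meet and its neighbour on chromosome 5, with 0 protein-coding genes between them, read 1801 and 1419, a difference of -0.34, with the other probe set at 0.22. MARVELD3, the remaining relative, read 274 and 329 (0.26, and -0.77 with poly(A) scaling). The scaffold TJP1 (ZO-1), which binds claudins and occludin, read 3087 and 2353 (-0.39), and CGN (cingulin), which links ZO-1 to myosin, 1154 and 869 (-0.41), with both probe sets of each gene lower. TJP3 (ZO-3) had a probe set at 0.48 (242 and 336) and another at -0.86 (158 and 87.3), so its direction depended on the probe set.

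Keratins 8 and 18 pair into the filaments of simple epithelia, and both were lower in hepatospheres. KRT8 read 10970 in differentiated cells against 5077 in hepatospheres, or 2.16-fold lower, and KRT18 read 29157 and 17194, a difference of -0.76. Each has 1 probe set, whose name marks cross-matching sequence. RefSeq lists 52 pseudogenes named after KRT8 and 68 named after KRT18, so signal from such copies could not be separated, and neither gene has a probe set left once such names are dropped. The genes are adjacent on chromosome 12. KRT23, a type I keratin, read 984 and 842 (-0.23). All 3 measured keratins of the list were thus lower, also with the arrays quantile or loess normalized. Median centring and poly(A) scaling lower hepatosphere signals relative to differentiated ones, so they could not turn a lower gene. KRT80 read 2.57 in differentiated cells and 84.0 in hepatospheres, just under the floor of 84.1, and so counts as not measured. With the floor at the 40th percentile it was at least 1.69-fold higher.

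Nectins start the adherens junction before cadherins gather there. NECTIN2, also a ligand of lymphocyte receptors, was higher on all 4 probe sets but by different amounts. Probe set 203149_at read 952 in differentiated cells against 3525 in hepatospheres, or 3.70-fold higher. The others read 729 and 1023, 220 and 259, and 120 and 216, each within 2-fold. With the mean over the 4 the difference was 0.87, and with poly(A) scaling 0.86. RefSeq lists 1 pseudogene named after it. NECTIN1 read 363 and 393 (0.12, and -0.14 with median centring), and NECTIN3 stayed below the floor at 1.78 and 25.5. ESRP1, which directs epithelial splice forms, was below the floor at 9.13 and 17.1.

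**Figure D2:**
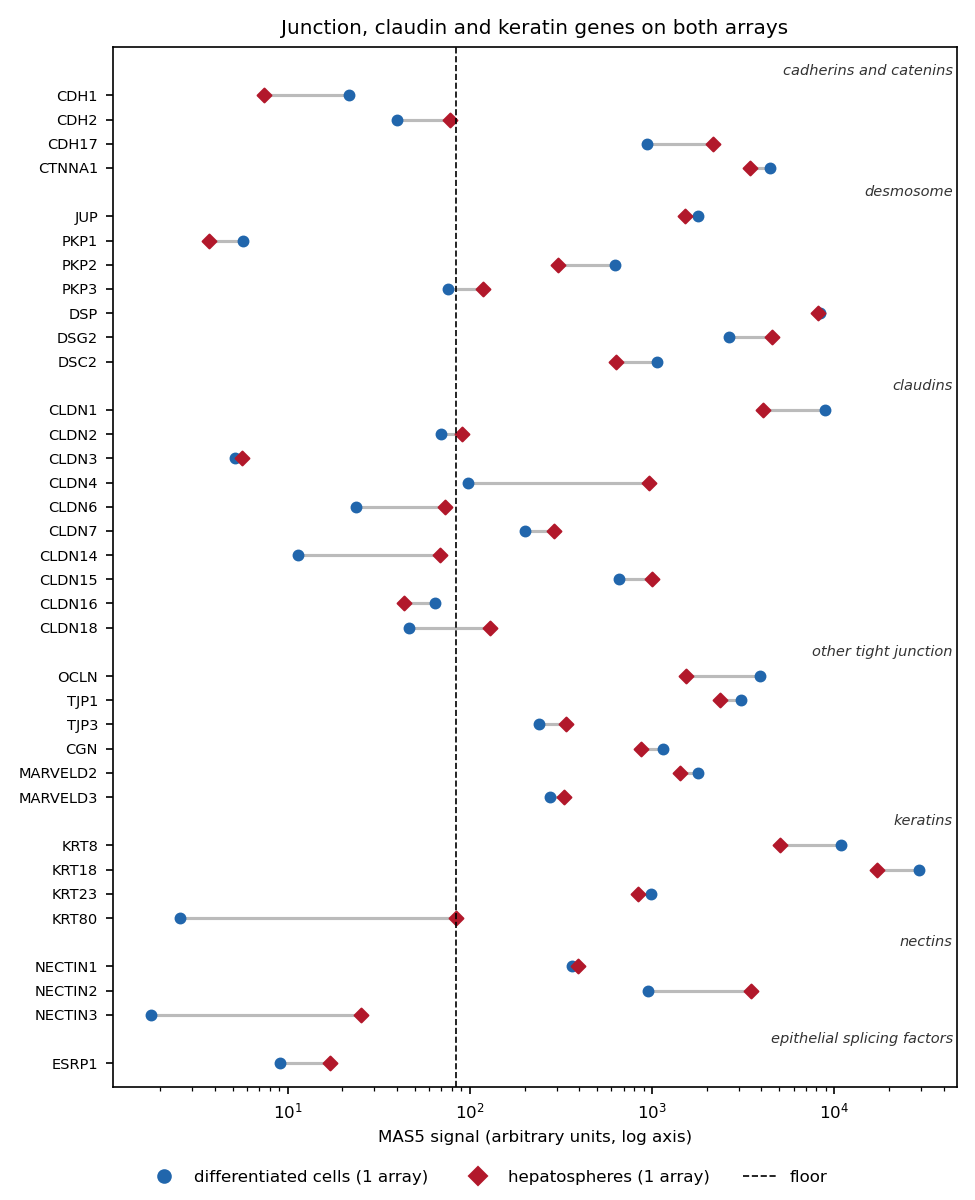
MAS5 signal (log axis) of the 35 junction and keratin genes in differentiated cells (circles) and hepatospheres (diamonds), 1 array each, by role, on the probe set with the highest mean signal. The dashed line is the floor of 84.1. CLDN4 moves from 97.7 to 967, OCLN from 3942 to 1540, and 10 genes, CDH1 and CDH2 among them, lie below the line on both arrays.

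Of 44 probe sets at the floor, 21 were higher in hepatospheres and 23 lower. Of the 12 genes with more than 1 such probe set, 7 had all of them on the same side of 0, or 58.3%, beside 64.1% of 6230 genes overall. The 5 others were CTNNA1, DSC2, MARVELD2, MARVELD3 and TJP3, all within 2-fold on the probe set used. In 0 of the 12 did probe sets pass 2-fold in both directions.

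**Figure D3:**
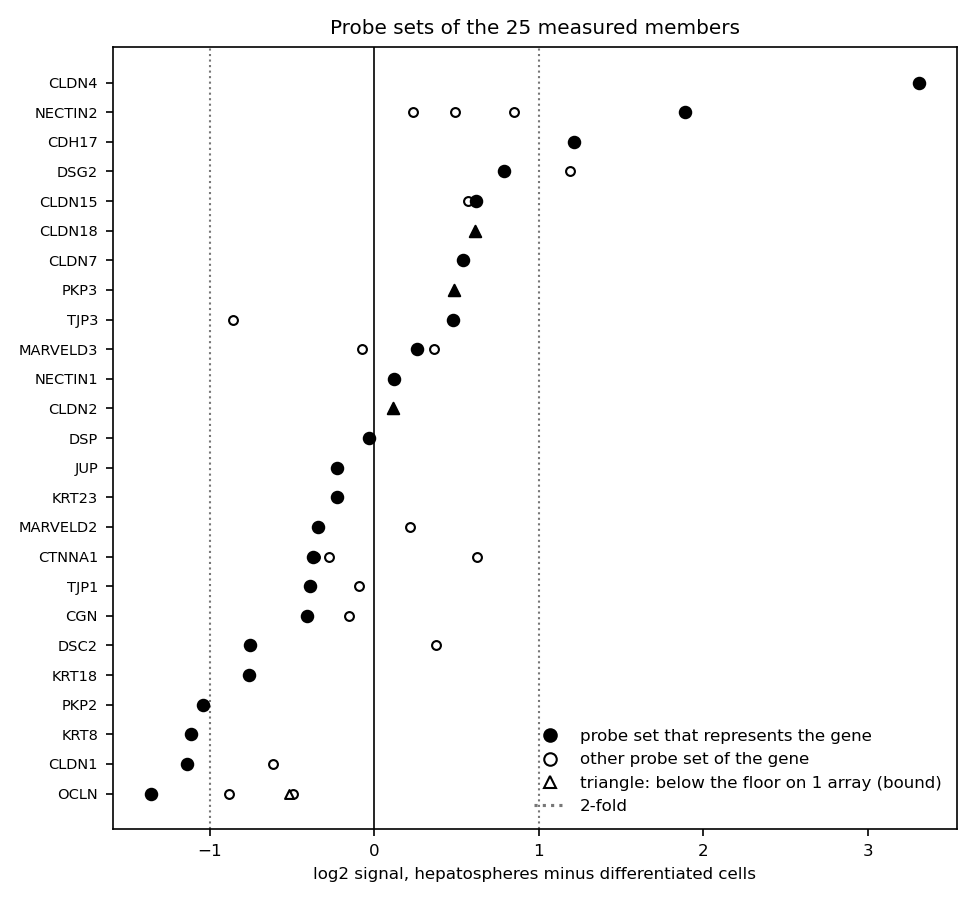
Log2 difference in signal (hepatospheres minus differentiated cells) for every probe set at the floor of the 25 measured genes, ordered by the probe set that represents the gene (filled). Open symbols are other probe sets, triangles are bounds, and dotted lines mark 2-fold. The 4 OCLN probe sets lie between -1.36 and -0.49, the 4 of NECTIN2 between 0.24 and 1.89, and TJP3 lies on both sides of 0. Poly(A) scaling moves down the filled symbol of each gene that keeps a value, and CLDN2 and CLDN18 keep none.

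Genes of the same junctions outside this list were read from a further list of 71. Of 64 with a probe set, 39 were measured, 6 at least 2-fold higher and 3 at least 2-fold lower (median 0.17), or 15.4% and 7.69%. Centred arrays gave 3 and 5 (7.69% and 12.8%, beside 9.09% and 14.6% of all genes), and poly(A) scaling 2 and 13 of 38 (5.26% and 34.2%, beside 3.22% and 46.5%). The cytoplasmic partners of cadherins and nectins were all within 2-fold: CTNNB1 (beta-catenin) read 8631 and 7813, CTNNAL1 2683 and 2429, VCL (vinculin) 3913 and 3610 and AFDN (afadin) 1856 and 2620. In the desmosome group EVPL (envoplakin) was 1.99-fold higher, just within 2-fold, at 266 in hepatospheres, PKP4 read 2910 and 1613, PPL (periplakin) 391 and 618, and PERP 12568 and 13875.

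Of 22 measured tight junction and polarity genes of that list, 3 were 2-fold higher and 2 lower. These are 13.6% and 9.09%, near the 12.5% and 8.83% of all genes. CLDN12 read 871 and 3442, 3.95-fold higher in hepatospheres. It lies on chromosome 7 with 13 protein-coding genes between it and ABCB1, the drug efflux pump, a gene of no list here that was named after its values were seen and stood at 3.92 on the log2 scale. CLDND1, a claudin-like membrane protein, was 2.23-fold higher (762 and 1702), and CGNL1 (paracingulin), named after its values were seen, 2.17-fold (261 and 567). With median centring both were within 2-fold, at 0.91 and 0.87. The angiomotin relatives AMOTL1 and AMOTL2, scaffolds that bind polarity proteins and YAP, were lower. AMOTL1 read 502 and 94.4, 5.32-fold lower, and AMOTL2 1348 and 390, 3.46-fold lower. The hepatosphere signal of AMOTL1 was just above the floor. With the floor at the 60th percentile its difference was -1.72 on the log2 scale in place of -2.41. The gap junction gene GJB1, which encodes the main hepatocyte connexin, read 1034 and 248, 4.17-fold lower. The other connexin genes were within 2-fold: GJC1 read 906 and 1435, GJA1 11178 and 13098, and GJB2 480 and 511.

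Of 4 measured keratins outside the list, 3 were 2-fold higher on the probe set used, KRT20, KRT10 and KRT7. KRT20, the keratin of gut epithelium, read 205 in differentiated cells and 8962 in hepatospheres. KRT10, a keratin of stratified epithelium, read 6645 and 14539, 2.19-fold higher with all 3 probe sets above 0, though 0.88 with median centring. The names of all 3 mark cross-matching sequence, so KRT10 has no value once such probe sets are dropped. KRT7, a keratin of bile duct cells, read 125 and 920 on one probe set and 162 and 99.2 on the other, so its direction was not settled. KRT15, a keratin of basal cells, read 100.2 and 71.1, a difference of -0.25 with the hepatosphere signal set to the floor.

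Among all measured genes, 12.5% were 2-fold or more higher. Of 4 measured regulators of epithelial genes, 2 were 2-fold higher (GRHL1 and ELF3), and of 3 measured repressors of CDH1, 1 (ZEB1). With poly(A) scaling none of these 3 factors was past 2-fold. GRHL1, a grainyhead factor, read 284 and 769, 2.71-fold higher. The other grainyhead factors, GRHL2 (23.8 and 31.2) and GRHL3 (4.74 and 8.69), were below the floor on both arrays. ELF3, an epithelial ETS factor, read 1189 and 4575 on one probe set, but its other 2 were lower (338 and 284, 426 and 289). OVOL1 read 82.4 and 164, and OVOL2 95.2 and 104. Among the repressors, ZEB1 read 571 and 1310, 2.29-fold higher with all 3 probe sets at the floor above 0. It stood at 0.95 with median centring and 0.17 with poly(A) scaling. SNAI1 read 48.7 and 142, a difference of at least 0.76. TCF3 read 1527 and 1408, and ZEB2, SNAI2 and TWIST1 were below the floor on both arrays.

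**Figure D4:**
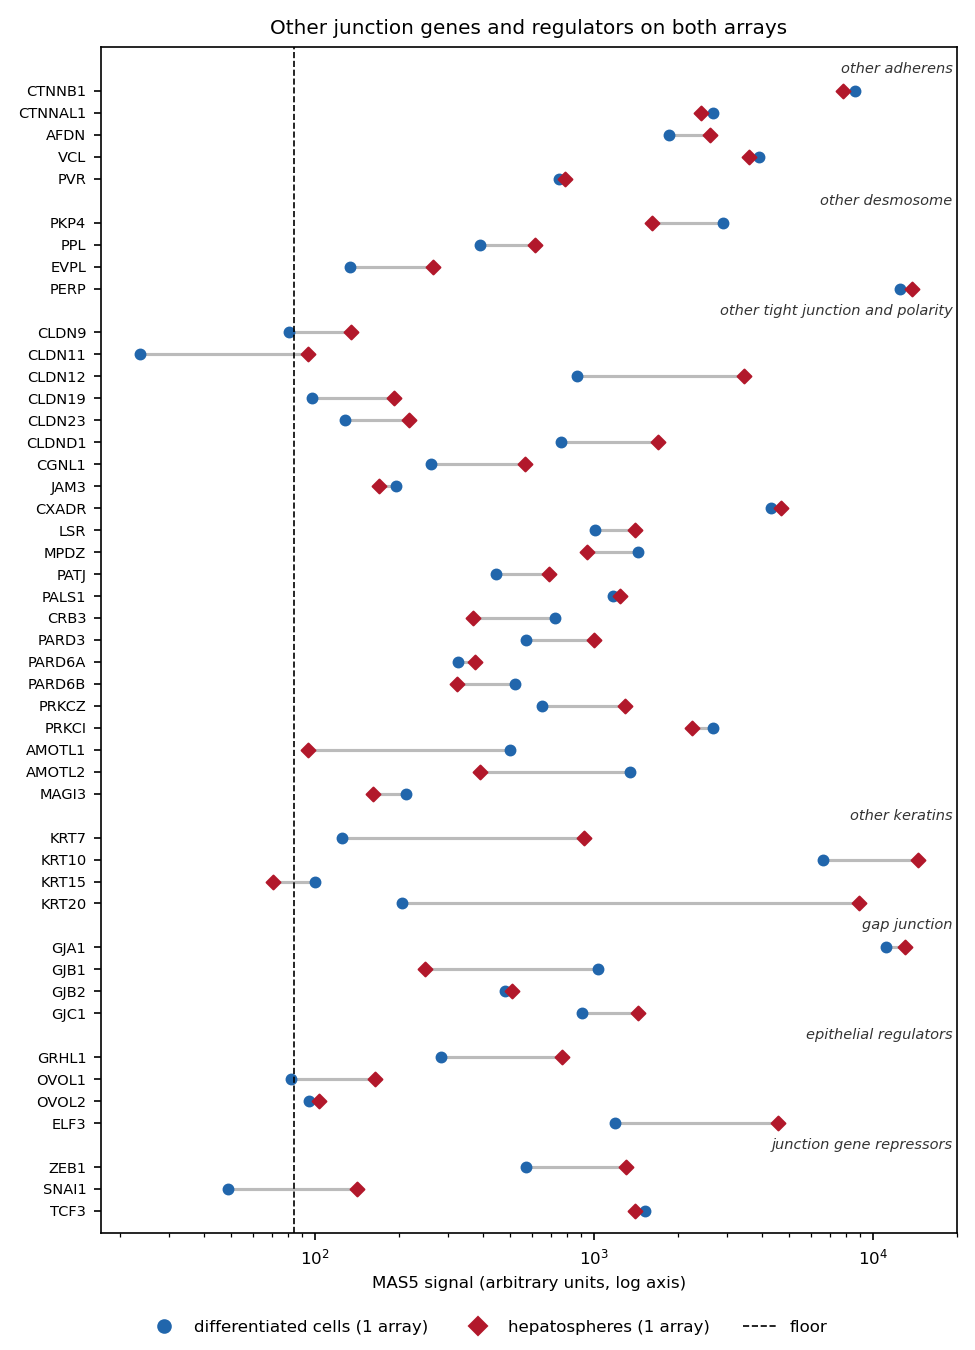
MAS5 signal (log axis) of the 46 measured genes of the further junction lists and of the regulators in differentiated cells (circles) and hepatospheres (diamonds), 1 array each. The dashed line is the floor of 84.1. CLDN12 and KRT20 lie to the right in hepatospheres, AMOTL1, AMOTL2 and GJB1 to the left, and KRT7 and ELF3 are drawn on the probe set that their other probe sets contradict.

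The 7 listed genes past 2-fold kept their direction under each alternative that gave a value. CLDN4 and KRT8 also stayed past 2-fold in each, 10 alternatives for CLDN4 and 9 for KRT8, which had no value without cross-matching probe sets. The other listed genes past 2-fold dropped under it in 1 or 2 alternatives. These counts include alternatives that could not change a value. The 40th percentile floor, no floor and the mean over probe sets left CLDN4 at 3.31 and KRT8 at -1.11. The 60th percentile floor also left KRT8 at -1.11. Leaving out shared-sequence probe sets could not change CLDN4, as neither of its probe sets has such a name. Median centring and poly(A) scaling lower hepatosphere signals relative to differentiated ones. They could thus not weaken KRT8 or reverse a lower gene.

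**Figure D5:**
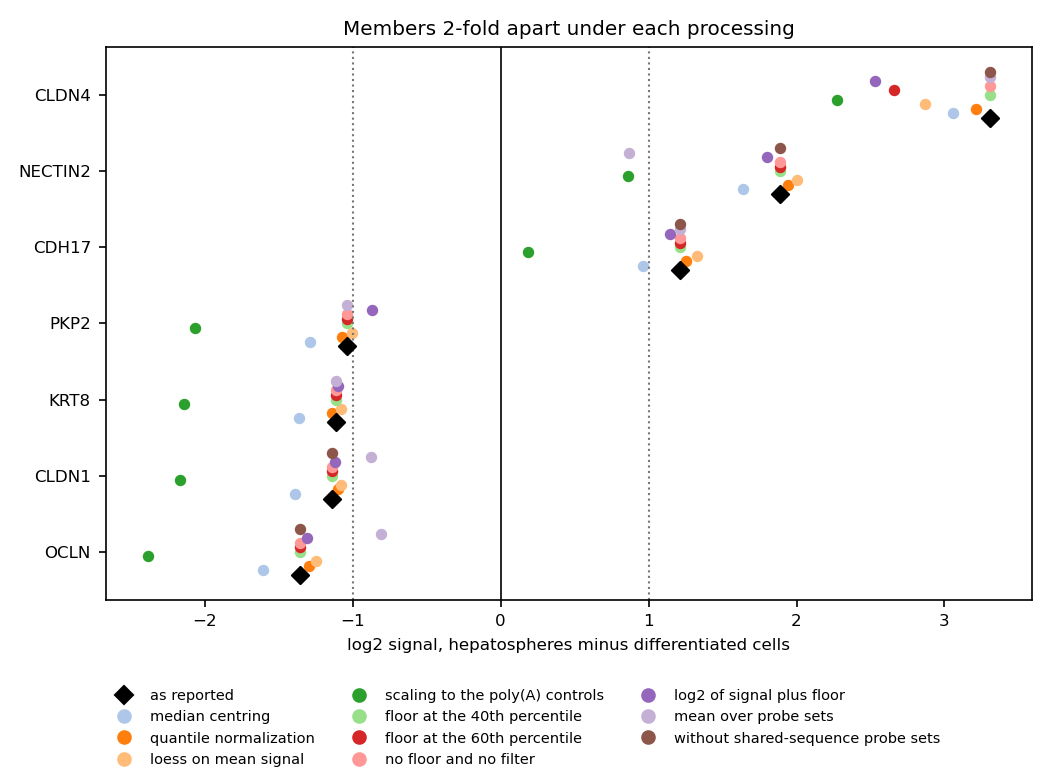
Log2 difference in signal (hepatospheres minus differentiated cells) of the 7 genes at least 2-fold apart, as reported (diamonds) and under each of 10 alternatives (circles), with dotted lines at 2-fold. No gene crosses 0; CDH17 comes closest, at 0.18 with poly(A) scaling, and CLDN4 ranges from 2.28 to 3.31.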

How the data were processed

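Total RNA of 2 PLC/PRF/5 cultures was hybridised to Affymetrix U133 arrays, 1 per group, grouped by the source names in the labels. The authors deposited linear intensity values, a signal for each probe set from MAS5, per the submitters' processing notes. Its version and scaling target were not stated. MAS5 corrects for background and mismatch probes, so weak signals are noisy, and brings arrays to a common mean; the 2% trimmed mean was 500.1 on both arrays. Precision is limited by the array number.

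Of 54675 probe sets, 62 were controls, 41091 had 1 gene symbol, 1801 several and 11721 none here, by GEO's annotation, which names no genome build. RefSeq (GRCh38.p14) gave names, gene order and promoters. Among several probe sets of a gene, the one of highest mean log2 signal represented it. The floor was the 50th percentile. Without replicates no test was run; genes 2-fold apart were counted, and the counting was tested on simulated data.

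The genes and lists were chosen with earlier results of these data known. All listed genes are accounted for: those 2-fold apart and those with the most signal in each role get values, as do up to 4 genes with the largest difference from each further list. Alternatives were median centring, quantile normalization, loess (span 0.3), poly(A) control scaling, no floor, floors set at the 40th or 60th percentile, log2 of the signal plus the floor, a mean over the probe sets, and leaving out probe sets named as shared. Python 3.11.15, numpy 2.4.6, pandas 2.3.3, statsmodels 0.14.6 and matplotlib 3.10.9 were used.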

Additional observations from a re-analysis of the deposited data

How the results depend on the processing

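No paired analysis was possible because each group has 1 array. Over 10 alternatives, 53 of 70 summary values (the counts 2-fold apart, and the median of the listed genes) stayed within 1.5 times. With poly(A) scaling the listed genes gave 1 higher, 13 lower and a median of -1.25, the further junction genes 2 higher and 13 lower, and all genes 399 higher and 5764 lower. With median centring the further junction genes gave 3 higher and 5 lower, and 1902 of all genes were lower. Without a floor 8 of 35 listed genes were higher (22.9%), near the share of all genes (4232, or 21.4%). The further junction genes gave 17 higher and 6 lower of 64 (26.6% and 9.38%), and 2431 of all genes were lower (12.3%). This setting adds the genes below the floor. Lower listed genes numbered 2 of 25 with the mean over probe sets (8%, beside 7.69% of all genes). Without shared-sequence probe sets they numbered 2 of the 18 left (11.1%, beside 9.66%). Leaving out shared-sequence probe sets also reversed KRT7 to -0.71 and ELF3 to -0.56. The cause of the other changes was not tested. The median of the listed genes lay near 0 and changed sign, to 0.19 with a 40th percentile floor, 0.13 without one and 0.37 without shared-sequence probe sets. Signals near the floor limit CLDN4, CLDN2, CLDN18 and PKP3, and AMOTL1 among the further genes.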
